A study of Mus musculus with 7 samples.

Results

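The comparison described here set tissue pieces with a high labelled share of DIMPLE against pieces with a low one, in bulk RNA-seq of the mouse medial amygdala. DIMPLE is the submitters' name for a fluorescent area that they cut out of this limbic nucleus, and the labels do not spell the name out. The sides were fixed by the percent DIMPLE that the labels give for each piece, an estimate from images, with 29 as the lowest value of the high side and 25 as the highest value of the low side. The division uses all 7 libraries of the series, 3 high and 4 low, each labelled as a separate replicate animal. Percent DIMPLE was 40, 32 and 29 in the high pieces, a mean of 33.7 ± 5.69 (SD, n = 3). It was 25, 20, 20 and 18 in the low pieces, a mean of 20.8 ± 2.99 (SD, n = 4). These percentages chose the sides and are given as a description with no test.

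All animals were Trap-Ai9 mice that had received tamoxifen by mouth and were sacrificed at 2 months of age. In such mice a tamoxifen-dependent recombinase is driven from the Fos locus, so cells that are active around the dose keep a red reporter for good. The 3 high pieces came from males given tamoxifen at postnatal day 24. The low side held 3 females given tamoxifen at 6 weeks and 1 male given it at postnatal day 24. These ages are those of the sample labels; the text on the study's design names only day 24. Sex and age at tamoxifen therefore overlap fully and cannot be told apart. Side overlaps with both except in the 18% male. A piece holds every cell in the cut area and not the labelled cells alone. Values are in CPM, counts divided by library size after scaling by the trimmed mean of M values (TMM). They are listed in the order female 1 (25%), female 2 (20%), female 3 (20%) and 18% male for the low side, and 40%, 32% and 29% male for the high side.

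The medial amygdala carries chemosensory and reproductive signals and is built largely from GABAergic neurons that arise in ventral and preoptic progenitors, together with glutamatergic neurons of pallial and hypothalamic-border origin. Neighbouring nuclei, among them the cortical and basolateral amygdala, are rich in glutamatergic projection neurons of pallial type. These neurons load vesicles through Slc17a7 and are specified by factors such as Neurod2, Fezf2 and Emx1, whereas Dlx factors mark the GABAergic lineage. A dissected piece can therefore vary in the mix of such cells as well as in expression within them.

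Libraries held 29049604 to 46494588 counts. Xist at 30.1 to 82.5 CPM in the females and at most 0.282 CPM in the males, and Ddx3y at 89.7 to 137 CPM in the males, matched the labelled sexes in all 7 libraries. Several libraries stood apart. The 32% male carried choroid plexus RNA, with the 12 tested choroid plexus and ependyma genes summing to 15070 CPM against 94.2 to 526 CPM elsewhere, and 15140 CPM of mature oligodendrocyte genes against 1312 to 3321 CPM, of which Enpp2, also a choroid plexus gene, made 7005 CPM. The 40% male had 5.74% of its counts on mitochondrially encoded genes against 2.24 to 2.88% in the others. Female 3 had high levels of hypothalamic peptide genes, such as Avp at 265 CPM against at most 13.1 CPM elsewhere. In the 29% male the immediate early genes summed to 1023 CPM, against 434 to 546 CPM in the other libraries.

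Of 55414 genes in the deposited table, 49164 had complete counts and 45316 of these lay outside chromosomes X and Y. After the low-count filter 19740 genes outside X and Y were tested. A set of 78 genes (0.395% of those tested) passed a Benjamini-Hochberg adjusted p of 0.05 in edgeR's quasi-likelihood test. Of these, 60 (0.304%) rose on the high side, with a median log2 fold change of 1.97, and 18 (0.0912%) fell, with a median of -1.09. At an unadjusted p under 0.05 the test gave 1887 genes (9.56%), 1083 higher (5.49%) and 804 lower (4.07%). The median over all genes tested was 0.02, and 52.9% had an estimate above 0. In all 78 genes the sides did not overlap, which was also so for 9.39% of all genes tested (4.3% with every high library above, 5.1% with every high library below). In bulk tissue, fewer cells of a type and less RNA per cell cannot be told apart.

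The number of calls depended on single libraries. It was 0 without female 1 (smallest adjusted p = 0.14, edgeR), 1 without female 2, 0 without female 3 (smallest adjusted p = 0.0857) and 0 without the 29% male (smallest adjusted p = 0.182). It was 20 without the 18% male, 102 without the 40% male and 86 without the 32% male. In each of these 7 fits all 78 genes kept their sign and had an unadjusted p under 0.05 (edgeR). The 78 were chosen with the same libraries, so this outcome was favoured in advance and is no independent support. DESeq2 called 466 genes, 289 higher and 177 lower, which included all 78, and limma-voom called 74. With sex as a covariate no call remained in edgeR. All 78 kept their sign in that model, which again used the libraries that chose them. Their fold changes on the log2 scale were at a median of 0.872 times those without sex. That model sets the 3 high males against the 18% male alone.

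**Figure D1:**
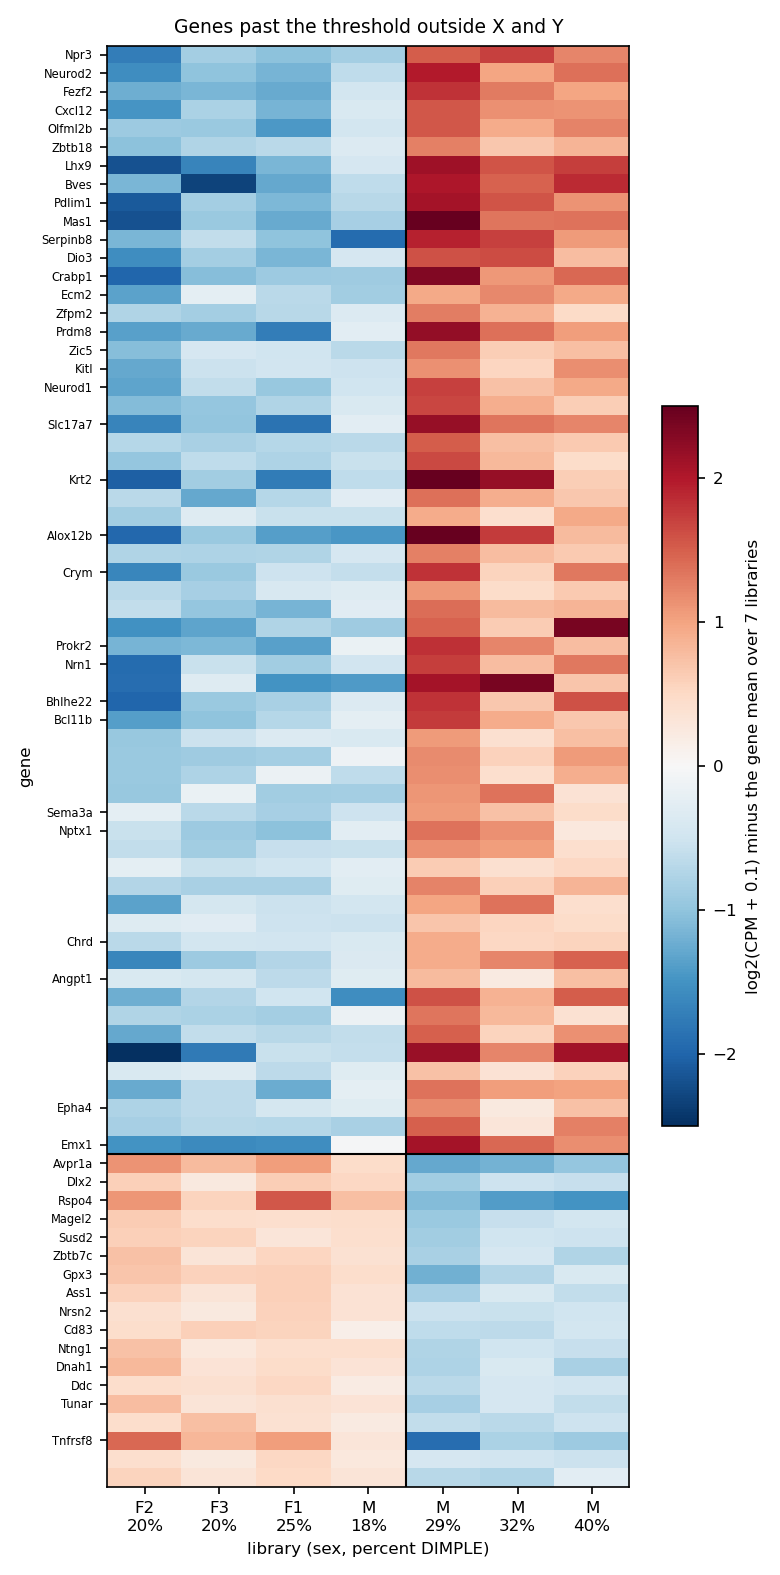
Levels of the 78 genes that passed the threshold outside X and Y in each library, as log2(CPM + 0.1) minus the gene's mean over the 7 libraries. Rows are genes, with the names of those described in the text, and columns are libraries ordered by side, F for female and M for male with the percent DIMPLE; the vertical line separates low (left) from high (right), and the horizontal line separates the 60 genes that rose from the 18 that fell. The 29% male column is the strongest of the high side for most genes.

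The heat map of called genes shows the 29% male at the extreme of the high side over most rows. The order of the other libraries differed between genes. The 29% male, the high piece closest to the limit, had the highest level of the high side in 50 of the 60 genes that rose (83.3%), against 22.4% of all genes with an estimate above 0. It had the lowest level in 11 of the 18 that fell (61.1%, against 18.9% of all genes with an estimate below 0). The 40% male, the piece with the largest labelled share, was the highest in 4 of the 60.

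Pallial projection neuron genes had the most called members of the 25 gene lists. All 24 genes of this list were tested, 9 rose (against 0.304% of all genes), 0 fell, and the median log2 fold change was 1.17. The lists were written with earlier results of these data known, so these shares are a description. In 16 of the 24 every high library lay above every low library, against 4.3% of all genes. The 9 were the vesicular glutamate transporter Slc17a7, the transcription factor genes Neurod2, Neurod1, Fezf2, Emx1 and Bhlhe22, the neuritin gene Nrn1, the neuronal pentraxin gene Nptx1 and Crym, which binds thyroid hormone. The count was 0 without female 1, female 2, female 3 or the 29% male, 4 without the 18% male, 10 without the 40% male and 8 without the 32% male, and the list median stayed between 0.93 and 1.30 in these fits. With sex as a covariate no call remained and the median was 1.18. With the starting letters of each library's column name (f, mv or mb) as a term, no call remained either and the median was 0.60. DESeq2 called 13 of the list and limma-voom 9.

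Slc17a7 (ENSMUSG00000070570, chromosome 7, 44813373 to 44825566, GRCm39) stood at 48.8, 55.9, 88.7 and 145 CPM in the low pieces and at 406, 442 and 793 CPM in the high pieces. The 29% male was highest, the 18% male was highest of the low side, and the sides did not overlap. Its means were 547 ± 214 CPM (SD, n = 3) on the high side and 84.6 ± 43.8 CPM (SD, n = 4) on the low side. The log2 fold change was 2.69 ± 0.39 (SE, adjusted p = 0.0341, edgeR), and 1.92 ± 0.51 with sex as a covariate.

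Neurod2 encodes a basic helix-loop-helix factor of differentiating glutamatergic neurons (ENSMUSG00000038255, chromosome 11, 98216241 to 98220474). It stood at 5.91, 4.46, 6.56 and 8.58 CPM in the low pieces and at 34.5, 26.6 and 53.0 CPM in the high pieces (log2 fold change 2.58 ± 0.28, SE, adjusted p = 0.0341, edgeR). The 18% male again lay above the 3 females and well short of the 3 high males. Fezf2, a zinc finger factor of subcerebral projection neurons, stood at 4.87, 5.05, 5.28 and 8.58 CPM against 23.4, 29.2 and 41.7 CPM (log2 fold change 2.40 ± 0.27, adjusted p = 0.0341, edgeR). Its 3 female libraries were nearly equal, and in the high pieces its level fell as percent DIMPLE rose. Emx1, a homeobox gene of the dorsal pallium, stood at 0.587, 0.619, 0.573 and 1.89 CPM against 4.45, 5.36 and 8.48 CPM (log2 fold change 2.74 ± 0.47, adjusted p = 0.0494, edgeR).

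Other pallial genes did not pass. Slc30a3, which loads zinc into vesicles of glutamatergic terminals, stood at 13.4, 12.4, 13.1 and 16.5 CPM against 26.8, 34.9 and 70.6 CPM (adjusted p = 0.0538, edgeR), and the sides did not overlap. Tbr1, a factor of early-born cortical neurons, stood at 2.15, 4.61, 4.71 and 3.83 CPM against 5.85, 7.62 and 11.2 CPM (adjusted p = 0.257). Camk2a, a kinase gene of excitatory neurons, and Cux2, a factor of upper-layer cortical neurons, overlapped between the sides. The list therefore did not move as 1 block.

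**Figure D2:**
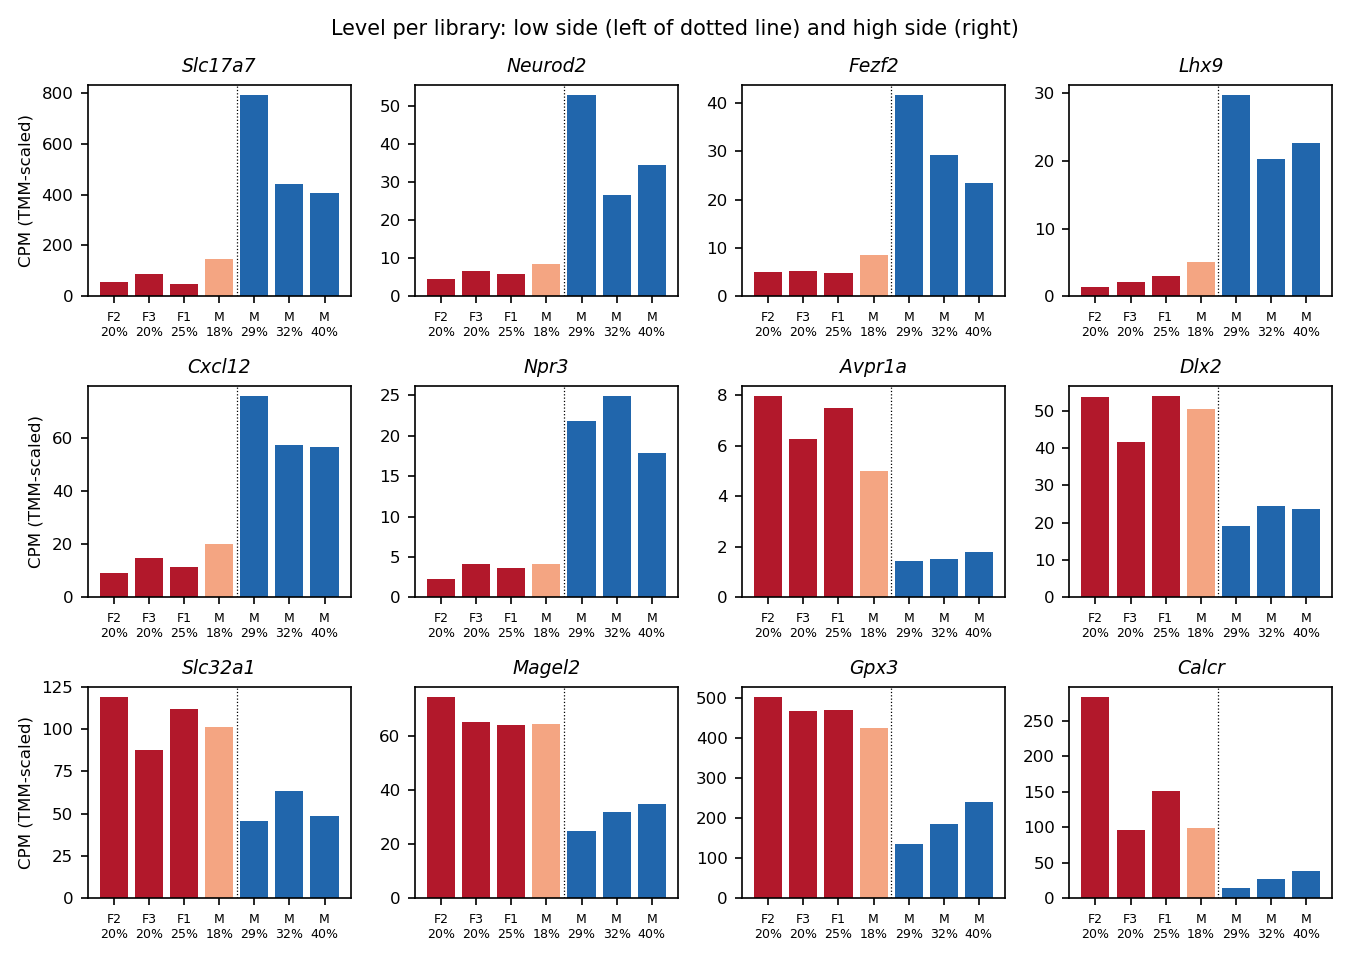
Levels in CPM (TMM-scaled, linear axes from 0) of 12 genes in each of the 7 libraries, 1 bar per library, with low libraries left of the dotted line (red females, orange 18% male) and high libraries right of it (blue). In Slc17a7, Neurod2, Fezf2, Lhx9, Cxcl12 and Npr3 all 3 high bars are above all low bars, and in the lower panels from Avpr1a on they are below; Slc32a1 and Calcr did not pass the threshold.

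Of 26 listed transcription factors of amygdala lineages 24 were tested, with 13 estimates above and 11 below 0 and a list median of 0.10. Of these 3 rose (against 0.304% of all genes) and 0 fell (against 0.0912%). Lhx9, a LIM homeobox gene (ENSMUSG00000019230, chromosome 1, 138752924 to 138776315), stood at 3.04, 1.42, 2.10 and 5.07 CPM in the low pieces and at 22.7, 20.4 and 29.8 CPM in the high pieces (log2 fold change 3.06 ± 0.38, SE, adjusted p = 0.0341, edgeR). The 18% male was the highest of the low side and far below every high piece. Prdm8, a transcriptional repressor gene, stood at 3.13, 4.06, 4.33 and 8.77 CPM against 22.0, 27.6 and 48.6 CPM, and the zinc finger gene Zic5 at 12.2, 8.20, 12.96 and 10.8 CPM against 29.2, 26.5 and 43.2 CPM (adjusted p = 0.0341 each, edgeR). For Zic5 the 18% male lay among the females. Lhx6, a factor of GABAergic neurons from the medial ganglionic eminence, stood at 146, 204, 133 and 162 CPM against 56.9, 102 and 68.2 CPM and did not pass (adjusted p = 0.0995). The 3 calls became 2 without the 18% male and 0 without female 3 or the 29% male.

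Npr3, the gene of lowest p, encodes the clearance receptor for natriuretic peptides (ENSMUSG00000022206, chromosome 15, 11839982 to 11907373). It stood at 3.65, 2.23, 4.18 and 4.15 CPM in the low pieces and at 17.8, 25.0 and 21.9 CPM in the high pieces. The 18% male lay within the range of the females, and none of the 3 high pieces came near it. Its log2 fold change of 2.60 ± 0.25 (SE) had the lowest adjusted p of all genes (0.0299, edgeR), and it was the 1 gene still called without female 2 (adjusted p = 0.0235). It lost the call without female 1 (adjusted p = 0.14), female 3 (0.0857) or the 29% male (0.182).

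Cxcl12, the chemokine ligand of Cxcr4 that guides migrating neurons, stood at 11.4, 9.19, 14.9 and 19.9 CPM against 56.3, 57.2 and 75.7 CPM (log2 fold change 2.19 ± 0.26, adjusted p = 0.0341, edgeR). Mas1, which encodes a receptor for an angiotensin fragment, stood at 2.00, 1.02, 2.55 and 2.73 CPM against 12.9, 12.7 and 28.9 CPM, and Kitl, the ligand of the receptor Kit, at 16.8, 9.53, 16.0 and 16.3 CPM against 52.4, 34.2 and 51.8 CPM. In all 3 genes the high pieces lay above the low pieces. The prokineticin receptor gene Prokr2, known for its part in olfactory bulb development, stood at 3.22, 3.71, 3.82 and 7.48 CPM against 14.5, 19.7 and 30.3 CPM (adjusted p = 0.0374). The genes that rose also included Sema3a and Epha4, which act in axon guidance, Chrd, a secreted antagonist of bone morphogenetic proteins, and Angpt1, a ligand of endothelial Tie2. Kitl and these 4 genes were named after their values were seen. Each gene named as called lost its call without female 1, female 3 or the 29% male, and all but Npr3 lost it without female 2. Without the 18% male 18 of the 78 calls remained, and Avpr1a was the only one of them among genes that fell. Kitl, Sema3a, Epha4, Chrd and Angpt1 were not among the 18.

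Dio3, whose enzyme inactivates thyroid hormone, stood at 3.15, 2.35, 3.90 and 5.28 CPM in the low pieces and 12.2, 22.2 and 21.5 CPM in the high pieces (log2 fold change 2.34 ± 0.31, adjusted p = 0.0341, edgeR). Crabp1, a cytosolic carrier of retinoic acid, stood at 1.09, 0.464, 0.955 and 1.10 CPM against 5.92, 4.58 and 11.02 CPM (log2 fold change 2.98 ± 0.40, adjusted p = 0.0341). Both genes were low in all 4 low pieces, and for Crabp1 the 18% male was level with female 1. Crabp1 was the 1 gene called among 18 tested genes of retinoic acid synthesis, binding and signalling (against 0.304% of all genes), a list with a median log2 fold change of 0.35. Cyp26a1, which degrades retinoic acid, stood at 0.5, 0.248, 0.318 and 0.551 CPM against 0.718, 4.06 and 7.97 CPM and did not pass (adjusted p = 0.0772). Its level was high in the 32% and 29% males and not in the 40% male.

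Bves, a Popeye domain gene of cell membranes, stood at 0.761, 0.836, 0.318 and 1.23 CPM against 7.47, 5.71 and 8.39 CPM (log2 fold change 3.20 ± 0.40, adjusted p = 0.0341, edgeR). Its neighbour Popdc3, named here after its values were seen, stood at 1.61, 0.310, 0.636 and 3.81 CPM against 14.9, 11.7 and 22.4 CPM and did not pass (adjusted p = 0.0799), but passed without the 18% male (0.0391). The remaining genes of lowest p that rose were Olfml2b and Ecm2, which encode extracellular matrix proteins, Zbtb18, a repressor gene of cortical neurons, Pdlim1, an actin-associated adaptor gene, Serpinb8, an intracellular protease inhibitor gene, and Zfpm2, a cofactor of GATA factors. Their log2 fold changes ran from 1.57 for Zfpm2 to 2.83 for Serpinb8. Serpinb8 stood apart from the others in that the 18% male had its lowest level, 0.446 CPM against 0.836 to 1.25 CPM in the females. Its log2 fold change was thus larger with sex as a covariate, 3.79 against 2.83.

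The 18 genes that fell were led by a peptide receptor. Avpr1a, the vasopressin receptor of social and aggressive behaviour circuits (ENSMUSG00000020123, chromosome 10, 122284404 to 122289357), stood at 7.48, 7.99, 6.28 and 4.99 CPM in the low pieces and at 1.80, 1.52 and 1.43 CPM in the high pieces. The 3 high pieces were close to each other, and the 18% male was the lowest of the low side but above all of them. Its mean was 1.58 ± 0.192 CPM (SD, n = 3) on the high side and 6.68 ± 1.34 CPM (SD, n = 4) on the low side, a log2 fold change of -2.08 ± 0.27 (SE, adjusted p = 0.0341, edgeR). It was 1 of 2 genes called among 36 tested neuropeptide receptors (against 0.395% of all genes), with Prokr2 in the other direction. Oxtr, the oxytocin receptor gene, stood at 16.5, 18.6, 15.04 and 22.1 CPM against 31.3, 38.9 and 47.0 CPM and narrowly missed the threshold (adjusted p = 0.0503).

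Dlx2, a homeobox gene of GABAergic progenitors and neurons (ENSMUSG00000023391, chromosome 2, 71373752 to 71377098), stood at 54.1, 53.6, 41.6 and 50.5 CPM in the low pieces and 23.6, 24.5 and 19.2 CPM in the high pieces. The 18% male lay among the females. The log2 fold change was -1.16 ± 0.17 (SE, adjusted p = 0.0341, edgeR). Dlx2 was the 1 gene called among 19 tested GABAergic neuron genes (against 0.0912% of all genes), of which 14 had a lower estimate, with a list median of -0.57. In 7 of the 19 every high piece lay below every low piece, against 5.1% of all genes. Slc32a1, the vesicular GABA transporter, stood at 112, 119, 87.4 and 101 CPM against 48.4, 63.2 and 45.9 CPM and did not pass (adjusted p = 0.0538). The synthesis genes Gad1 and Gad2 overlapped between the sides, and Reln, secreted by subsets of interneurons, had all high pieces above the low ones without passing (adjusted p = 0.256).

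Magel2, an imprinted gene active in hypothalamic and limbic neurons, stood at 64.4, 74.8, 65.3 and 64.8 CPM against 35.0, 32.2 and 25.0 CPM (log2 fold change -1.13 ± 0.17, adjusted p = 0.0341, edgeR). Gpx3, a secreted glutathione peroxidase gene, stood at 469, 503, 467 and 424 CPM against 239, 186 and 136 CPM (log2 fold change -1.32 ± 0.20, adjusted p = 0.0373). In both genes the 29% male was lowest, and the 18% male lay within or just below the range of the females. Rspo4, a secreted enhancer of Wnt signalling, stood at 3.72, 2.69, 1.82 and 2.10 CPM against 0.359, 0.391 and 0.516 CPM (log2 fold change -2.60 ± 0.38, adjusted p = 0.0341). The other genes of lowest p that fell were Ass1 of arginine synthesis, Ddc of dopamine and serotonin synthesis, the dynein heavy chain gene Dnah1, the axon surface gene Ntng1, the lymphocyte and microglial surface gene Cd83, and Susd2, Zbtb7c, Nrsn2 and Tunar. Their log2 fold changes ran from -0.92 for Ddc to -1.15 for Zbtb7c and Dnah1.

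Hypothalamic neuron genes had the lowest median of the 25 lists outside the sex check, -1.18 over 19 tested genes of 25, but no member passed in edgeR, 8 were lower at an unadjusted p under 0.05 (against 4.07% of all genes), DESeq2 called 4 lower and limma-voom 1. Calcr, the calcitonin receptor gene, stood at 151, 284, 95.9 and 99.6 CPM against 38.8, 27.7 and 14.5 CPM (adjusted p = 0.0552, edgeR). Its high pieces all lay below its low pieces, with the 29% male lowest and female 2 highest. Female 3 had the highest level of several peptide genes of this list. Oxt stood at 0.609, 0.619, 44.7 and 3.81 CPM against 0.215, 0.130 and 0.394 CPM, and Pmch, the melanin-concentrating hormone precursor gene, at 3.02, 1.95, 20.7 and 6.09 CPM against 0.467, 0.543 and 0.639 CPM. Without female 3 the list median was -0.58.

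Among 27 tested neuropeptide genes 20 had an estimate below 0, as had 9299 of all 19740 genes, and the median log2 fold change was -0.48. edgeR and limma-voom called 0 of them, and DESeq2 called 3 lower and 1 higher. At an unadjusted p under 0.05 edgeR gave 9 lower (against 4.07% of all genes) and 2 higher (against 5.49%). Pnoc, the nociceptin precursor gene, stood at 113, 115, 109 and 99.7 CPM against 64.7, 76.6 and 60.9 CPM (adjusted p = 0.0962, edgeR). Penk, the enkephalin precursor gene, stood at 301, 342, 310 and 142 CPM against 113, 173 and 125 CPM (adjusted p = 0.252), so the 18% male was with the high males. In Penk the order was that of sex and in Pnoc that of side.

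**Figure D3:**
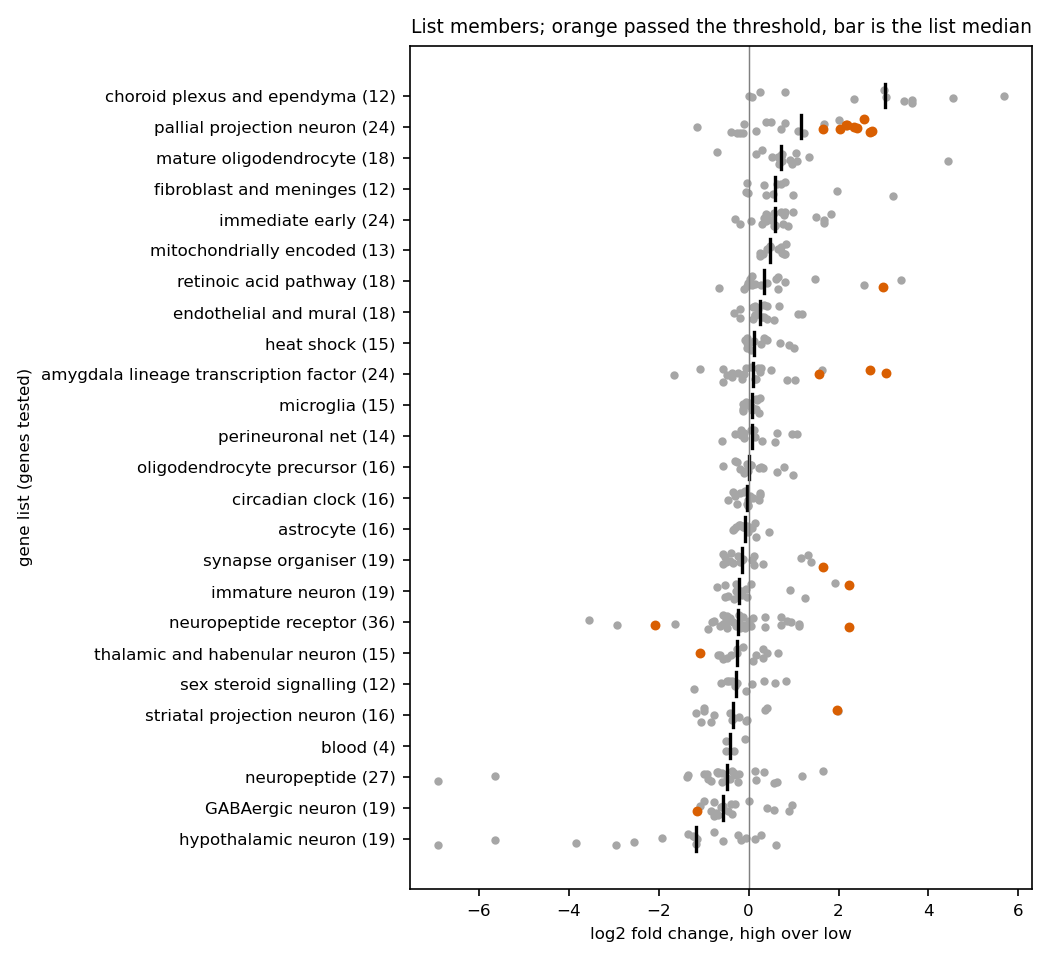
Log2 fold change, high over low, of every tested gene outside X and Y in 25 gene lists (1 point per gene, number tested in brackets, lists sorted by their median, vertical jitter without meaning). Orange points passed the threshold and the black bar is the list median, from -1.18 for hypothalamic neuron genes to 3.03 for choroid plexus and ependyma genes; 9 of the orange points belong to the pallial list.

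The plot of list members places the choroid plexus and ependyma genes at the top, with a median of 3.03, and this value came from 1 library. Ttr, the transthyretin gene of the choroid plexus, stood at 67.8, 14.1, 249 and 25.3 CPM in the low pieces and at 15.9, 13620 and 8.56 CPM in the high pieces. Without the 32% male the list median was -0.13, and 0 of 12 genes were called with it by edgeR (2 higher at an unadjusted p under 0.05), limma-voom or DESeq2. The mature oligodendrocyte median of 0.73 was 0.20 without the same male, with Mbp, a myelin protein gene, at 638, 1552, 1305 and 1483 CPM against 1243, 4742 and 1792 CPM. The mitochondrially encoded median of 0.48 was -0.11 without the 40% male. The immediate early median of 0.58 was 0.04 without the 29% male, in which Fos stood at 32.5 CPM against 4.12 to 13.9 CPM elsewhere. The 9 pallial calls became 8 without the 32% male, 10 without the 40% male, 0 without the 29% male and 0 without female 3. How much neighbouring tissue each piece held was not tested.

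**Figure D4:**
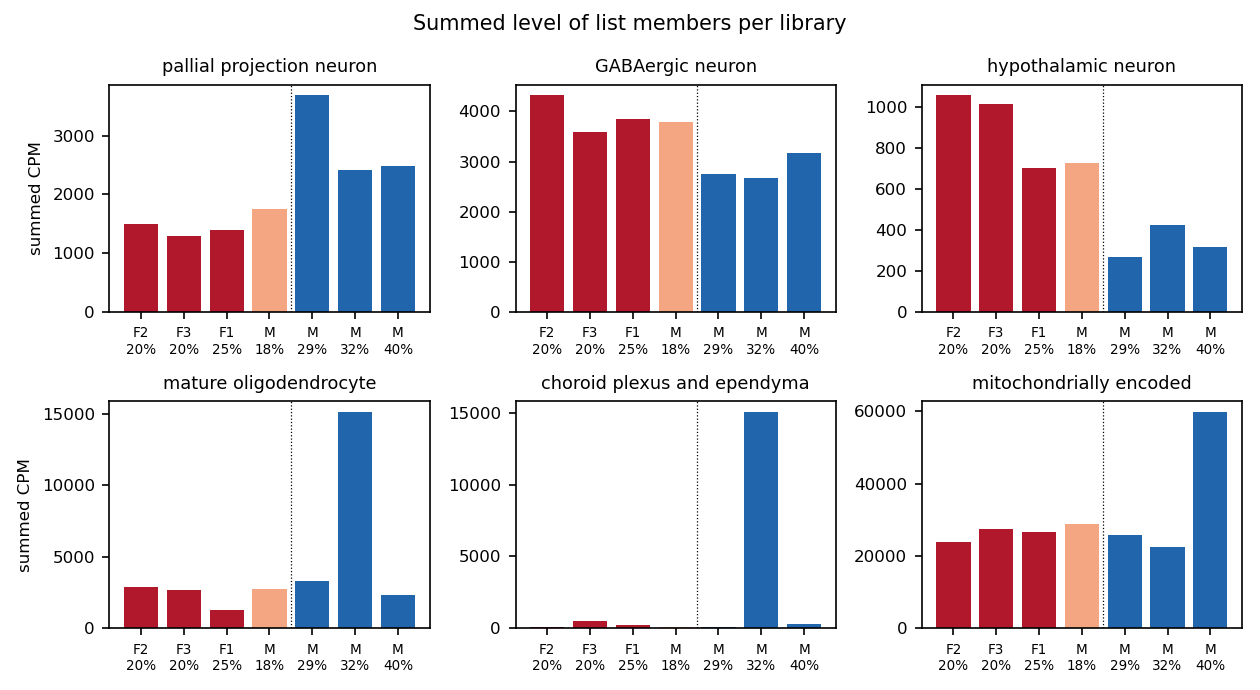
Summed CPM of the members of 6 gene lists in each library (bars from 0, colours and order as in the plot of single genes: low left of the dotted line, high right). The pallial sum was 2406 to 3685 CPM in the high pieces and 1295 to 1757 CPM in the low pieces, whereas the oligodendrocyte, choroid plexus and mitochondrial sums were each raised in 1 high library.

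The bars of summed levels show that the pallial and GABAergic sums separated the sides in every library. The pallial sum was 1386, 1498, 1295 and 1757 CPM in the low pieces against 2479, 2406 and 3685 CPM, and the GABAergic sum was 3852, 4322, 3598 and 3793 CPM against 3165, 2678 and 2761 CPM. The sum of hypothalamic genes also separated them, at 700, 1056, 1015 and 725 CPM against 316, 424 and 267 CPM. The separation was not particular to these lists. Among lists not plotted, immature neuron genes (4043 to 4564 CPM against 2937 to 3749 CPM) had it too. So had neuropeptide genes (6157 to 7258 CPM against 3846 to 5610 CPM). Astrocyte genes, by contrast, overlapped (4933 to 7506 CPM against 5690 to 6828 CPM), as did microglial genes.

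Whether the 18% male sided with the females or with the other males was read from genes chosen without it. Leaving each library out in turn, the 100 lowest-p genes for either direction were taken from the other 6, and the left-out library was placed between the mean log2 CPM of the low side, set to 0, and of the high side, set to 1. The 18% male had a median position of 0.28 over genes higher in the high side and 0.25 over genes lower in it. It was nearer the low mean in 88 of the 100 higher and 82 of the 100 lower genes. The females lay at 0.04, -0.22 and 0.09 over the higher genes, and the 40%, 32% and 29% males at 0.65, 0.75 and 1.22. Over the lower genes the females lay at 0.03, -0.18 and 0.25 and these males at 0.63, 0.63 and 0.95. On these genes, chosen for a difference between the sides, the median of every library was thus nearer its own side. Over the higher genes the order within the high side ran opposite to the labelled percentages. Whole libraries did not group by side in chi-square per degree of freedom. The 29% male was nearer the 18% male (49.8) than the 40% (108) or 32% male (148). The 40% and 32% males were the least alike pair (258), whereas the 18% male was nearest female 1 (35.4). The 32% male carried the choroid plexus RNA and the 40% male the raised mitochondrial share. Their part in these values, and that of library depth, was not tested.

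**Figure D5:**
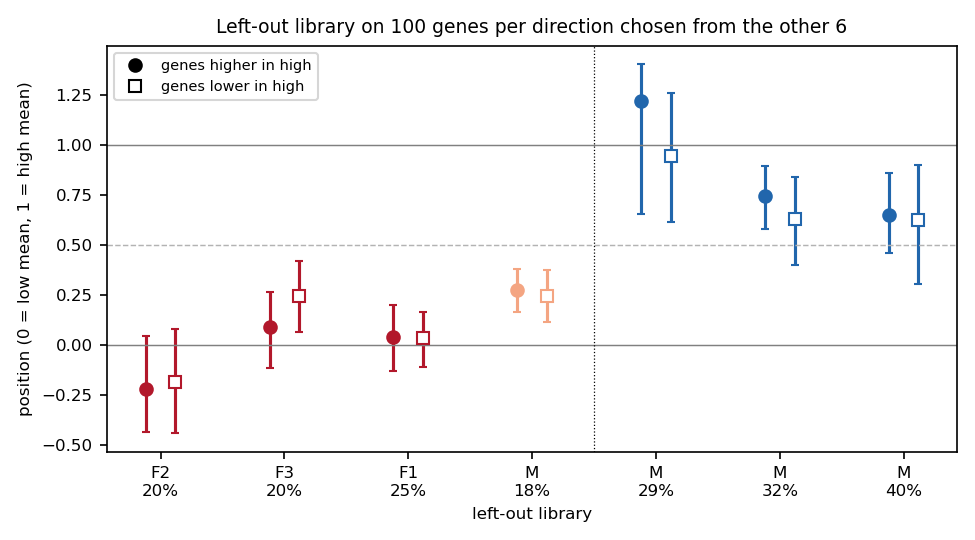
Position of each left-out library between the low mean (0) and the high mean (1) of log2 CPM, for 100 genes per direction chosen from the other 6 libraries (filled circles, genes higher in high; open squares, genes lower in high; points are medians and bars the quartiles over genes). The 18% male lies at 0.28 and 0.25, above the females over the higher genes and below all 3 high males.

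A left-out female could also lie past the other females. Over the 100 higher genes the 18% male lay past all 3 females in 74, and females 1, 2 and 3 lay past the other females in 48, 28 and 51. Over the 100 lower genes these numbers were 59 for the 18% male and 32, 27 and 79 for the females, so that female 3 was past the others more often than the 18% male was. In the 60 genes that rose the 18% male was above all 3 females in 39, against 15.5% of all genes tested. Its median there was 0.44 on the log2 scale above the female mean, where the high males stood 2.01 above that mean. In the 18 that fell it was below all females in 7 (38.9%, against 16.3%), with a median of -0.15 where the high males stood at -1.13. The 60 and the 18 were chosen with the 18% male on the low side. Its place nearer the females in them was therefore favoured in advance and is no independent support. Over the 20 genes called without the 18% male, 19 of which rose, its median position was 0.30. It lay short of all high males in 20 of these 20 and past all 3 females in 18. With 1 low male the spread among low males could not be measured.

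The slope on percent DIMPLE as a number asked whether levels followed the labelled share across the 7 pieces. edgeR called 0 genes (0%), with 2018 (10.2%) at an unadjusted p under 0.05 and a smallest adjusted p of 0.436, and limma-voom also called 0. Percent DIMPLE goes largely with sex and age at tamoxifen, so this slope holds differences of both. At an unadjusted p under 0.05 edgeR gave 887 genes with sex as a covariate and 660 in males only, in place of 2018. Pno1, a ribosome assembly gene, had the lowest p of the rising slopes, at 0.58 ± 0.10 log2 units (SE) per 10 percentage points. It stood at 42.2, 29.8, 35.2 and 33.3 CPM in the low pieces and at 79.1, 46.4 and 52.6 CPM in the high pieces. The 40% male was far above the rest. Cd24a, a surface protein gene of immature neurons, stood at 65.2, 23.4, 43.4 and 39.7 CPM against 166, 58.9 and 85.1 CPM, and Abracl at 5.07, 1.92, 4.54 and 2.31 CPM against 13.2, 8.64 and 7.57 CPM. Ermap and Lhx6 were among the falling slopes of lowest p, each with its lowest level in the 40% male. The genes named for their slope had adjusted p = 0.436 each (edgeR), and none of them passed between the sides.

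The stretches upstream of 3 called genes are printed to show one pallial gene with the E-box letters CAGATG, which factors of the NeuroD family are known to bind, beside a pallial gene and a GABAergic gene without them. Each is the 250 bases before the RefSeq start in build GRCm38.p6, whose coordinates differ from those of the deposited table, 5′ to 3′ on the gene's strand, with the motif in capitals: Neurod2 at chr11:98329646-98329895 on the minus strand, Emx1 at chr6:85187681-85187930 on the plus strand and Dlx2 at chr2:71546755-71547004 on the minus strand.
Neurod2: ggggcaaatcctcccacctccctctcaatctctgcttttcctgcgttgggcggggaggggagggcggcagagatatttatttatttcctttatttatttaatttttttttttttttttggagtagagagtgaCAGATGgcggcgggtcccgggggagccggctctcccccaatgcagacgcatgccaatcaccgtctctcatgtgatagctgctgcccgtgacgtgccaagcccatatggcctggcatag
Emx1: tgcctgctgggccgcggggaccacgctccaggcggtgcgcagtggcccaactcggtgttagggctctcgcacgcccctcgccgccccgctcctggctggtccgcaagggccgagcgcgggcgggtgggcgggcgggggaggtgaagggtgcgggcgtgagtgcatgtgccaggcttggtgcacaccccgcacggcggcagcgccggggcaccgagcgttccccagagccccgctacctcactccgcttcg
Dlx2: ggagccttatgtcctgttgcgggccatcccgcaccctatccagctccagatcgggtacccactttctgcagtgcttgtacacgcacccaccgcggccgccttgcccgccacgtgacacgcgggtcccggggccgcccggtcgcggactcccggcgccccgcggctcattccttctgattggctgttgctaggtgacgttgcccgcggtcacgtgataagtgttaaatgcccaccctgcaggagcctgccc
CAGATG was searched on both strands (CATCTG on the other). Of the genes that rose 46 had an entry, and 10 held the motif (21.7%). Of those that fell 14 had one, and 1 held it (7.14%). Among all 27025 genes with an entry 4409 held it (16.3%). A match describes letters in this window, and binding was not measured.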

How the data were processed

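RNA was sequenced from dissected medial amygdala pieces of 7 mice, grouped by the percent DIMPLE in the labels. The submitters' processing notes name build GRCm39, with the tools DESeq2 1.26.0, HTSeq 2.0.1, TopHat2 2.2.1 and cutadapt, whose roles they do not give; strand setting and annotation release are not given in the sources used here, so reads of overlapping, antisense or near-identical genes may be assigned uncertainly. The authors deposited 1 table, of which the raw counts per gene and library were used; its normalized columns and female against male statistics were not used here.

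Genes with complete counts were kept by filterByExpr of edgeR 4.0.16 (count minimum 10, total minimum 15). After TMM scaling, the robust form of its quasi-likelihood test was run under R 4.3.3, with Benjamini-Hochberg adjustment over all genes tested and a threshold of 0.05. CPM are TMM-scaled, and log2 CPM for positions used a prior count of 2. Alternatives were other scalings and filters, DESeq2 1.42.0, limma-voom (limma 3.58.1), sex, the start of the column name, the replicate number or 1 surrogate variable (sva 3.50.0) in the model, a threshold of 0.1, males only, and omission of single libraries. Scripts were tested on simulated counts. The division into sides, the members and the gene lists were chosen with earlier results of these data known. The calls, and the list counts set against all genes, are therefore no independent evidence for the division or the lists. Lists share members.

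Named genes were the 15 of lowest p in each direction, the 3 of lowest p in each direction for the slope, up to 3 members of lowest p and the first member of each list, and the sex check genes. Other genes were named after their values were seen, and not every gene under this rule is reported here. Depths were 29049604 to 46494588 counts per library, and precision rests on the spread between animals as well as on counting error. No libraries were duplicates: chi-square per degree of freedom was at least 35.4 for any pair. The labels give 1 library per replicate and do not name litters or days.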

Additional observations from a re-analysis of the deposited data

Results flagged for a closer look

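Of 125 groups of 4 low libraries examined (1 per named gene), 11 held a library far from the other 3, with a gap to its nearest neighbour divided by the whole range above Dixon's critical value at the 95% level. Chance flags about 1 in 20 groups that are independent and alike within. The groups here are the same 4 libraries for each gene, 3 females and 1 male, so the 11 cannot be judged by that rate. The 18% male stood apart for Fezf2, where it had 8.58 CPM against a median of 5.16 (ratio 0.889), and for Prokr2, with 7.48 CPM against 3.77 (0.859). It also had the highest haemoglobin levels of the low side, with Hba-a2 at 38.7 CPM against a median of 20.3 (0.88) and Hbb-bs at 84.0 CPM against 49.4 (0.851). Female 2 was highest for Magel2, with 74.8 CPM against 65.04 (0.915), for the oestrogen receptor gene Esr2, with 56.7 CPM against 26.7 (0.859), and for Kl, with 19.1 CPM against 13.1 (0.843), and lowest for the microglial gene Aif1, with 10.7 CPM against 11.8 (0.939). Female 1 was lowest for the astrocyte gene Gfap, with 181 CPM against 389 (0.952), and for Siglech, with 23.9 CPM against 26.9 (0.878). Female 3 was highest for Hcrt, the orexin precursor gene, with 10.7 CPM against 1.74 (0.83). In Fezf2 and Prokr2 every high library still lay above the 18% male. The causes were not tested.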

How the results depend on the processing

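The 78 genes called between the sides became 76 with DESeq2's size factors, 87 with upper quartile scaling, 96 with a filter of 1 CPM in 3 libraries, 74 with limma-voom and 62 with 1 surrogate variable. The count moved by more than 1.5 times to 206 with no low-count filter, to 466 with DESeq2 and to 189 at a threshold of 0.1. No call remained in edgeR with sex as a covariate, in males only, or with the start of the column name (f, mv or mb) as a term. The model with the column name sets the 40% male against the 18% male alone. In it the fold changes of the 78 on the log2 scale were at a median of 0.756 times the main ones. Leaving out 1 library gave 0 to 102 calls. Upper quartile scaling gave 69% of calls higher against 76.9%, DESeq2 62% and no filter 71.4%. The 18 list members called became 0 with sex as a covariate and 0 to 26 when 1 library was left out. Leaving out a library also removes residual degrees of freedom; other causes were not tested. The slope called 0 genes in all 11 alternatives, and no called value changed sign in any alternative run. For single genes, 338 values lost and 70 gained a call over all alternatives.

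Deviations of libraries with the same replicate number correlated at 0.343 for number 1 and -0.013 for number 3. Differently numbered pairs were not set beside these values, so they cannot decide whether the numbers pair the samples. With the replicate block the count was 0 (smallest adjusted p = 0.31, edgeR), and all 78 genes kept their sign. Only numbers 1 and 3 hold a library of each side, a female and a high male, so that fit cannot tell side from sex.

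Limits are that sex and age at tamoxifen go with the sides except in 1 animal, that percent DIMPLE is a single image estimate per piece, and that 3 against 4 animals give few degrees of freedom. The start of the column name also goes with the sides. The names starting with mb are those of the 32% and 29% males, and no low library has such a name.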

Other observations

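Among called genes not described above, Alox12b, a lipoxygenase gene of the skin barrier, had the largest log2 fold change of the 78, 4.02 ± 0.60 (SE, adjusted p = 0.0341, edgeR). It stood at 0.283, 0.155, 0.424 and 0.263 CPM in the low pieces and at 1.62, 3.24 and 9.17 CPM in the high pieces, so that its level fell as percent DIMPLE rose within the high side. Krt2, a keratin gene, stood at 2.11, 1.70, 3.95 and 4.62 CPM against 11.3, 33.1 and 41.3 CPM (adjusted p = 0.0341) with the same order among the high pieces. Tnfrsf8, a receptor gene of activated lymphocytes, fell from 14.2, 18.6, 12.2 and 8.37 CPM to 3.55, 3.89 and 1.75 CPM (log2 fold change -2.12 ± 0.36, adjusted p = 0.0477). The 18% male lay between the females and the high males for Tnfrsf8 and among the females for Alox12b. All 3 genes were chosen after their values were seen. Their calls were lost without female 1, female 2, female 3, the 18% male or the 29% male.

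Striatal and thalamic markers had list medians of -0.35 over 16 genes and -0.26 over 15. Of the 16 striatal genes 12 had an estimate below 0. At an unadjusted p under 0.05 (edgeR) 4 were lower (against 4.07% of all genes) and 2 higher (against 5.49%). With sex as a covariate the striatal median was 0.02. In the striatal list Bcl11b, a zinc finger factor also of subcerebral projection neurons, rose (27.2, 17.2, 22.3 and 37.7 CPM against 71.3, 85.7 and 150 CPM, log2 fold change 1.97 ± 0.31, adjusted p = 0.039, edgeR).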
